A study of Homo sapiens with 8 samples.

Results

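This section describes 10 growth arrest genes in PANC-1 cells, an established human cell line of pancreatic ductal carcinoma, after exposure to eupalinolide B (EB), a sesquiterpene lactone of the plant Eupatorium lindleyanum. The genes are the cyclin-dependent kinase (CDK) inhibitors CDKN1A, CDKN1B, CDKN1C, CDKN2A and CDKN2B, the antiproliferative genes BTG1 and BTG2, the stress genes GADD45A and GADD45B, and TP53INP1. They were found by symbol through their human Ensembl identifiers, and 10 of 10 had a row among the 20263 genes of the table. Cells received 10 μM EB or the vehicle dimethyl sulfoxide (DMSO) for 24 h, with 4 libraries per group. The study's methods call these biological replicates but also speak of triplicates sent for sequencing, and n = 4 here counts the libraries. Both groups are the same line with no genetic change, so the measurements speak for 1 cell line, 1 dose and 1 time. Columns headed C were read as DMSO and those headed H, a letter the labels do not explain, as EB by elimination.

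Passage from G1 into DNA synthesis is driven by cyclins bound to CDKs, which phosphorylate the retinoblastoma protein and its relatives. The CIP/KIP inhibitors p21 (CDKN1A), p27 (CDKN1B) and p57 (CDKN1C) bind cyclin-CDK complexes, whereas the INK4 inhibitors p16 (CDKN2A) and p15 (CDKN2B) bind CDK4 and CDK6. BTG1 and BTG2 bind the deadenylases of the CCR4-NOT complex, which shorten the poly(A) tails of mRNAs, and the GADD45 proteins bind stress kinases, CDK1 and PCNA. PANC-1 is known to have lost CDKN2A.

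Values are length-corrected transcript shares (TPM, which sum to the same total in each library), so that levels of different genes can be set side by side. Depth is unknown from TPM, and fewer cells with a transcript and less transcript per cell cannot be told apart in bulk RNA. Genes with a TPM of at least 1 numbered 11445 to 11894 in the DMSO libraries and 11353 to 11595 in the EB libraries. DMSO replicate 4 stood apart, with 39.0% of its TPM in the 13 mitochondrially encoded genes, where the other libraries had 11.6% to 21.1%. The groups also differed in the mean of this share, with overlapping libraries. It was 24.5% with DMSO (17.0% to 39.0%) and 14.7% with EB (11.6% to 20.3%). Removing those genes moved the median log2 fold change of all genes tested from −0.11 to −0.28. The part of this share in the results was not tested other than by leaving DMSO replicate 4 out or removing those genes. Of 5 ductal markers, KRT8, KRT18 and KRT19 were abundant, with a summed TPM over the 5 of 991 to 1454 with DMSO and 3209 to 3593 with EB, while KRT7 and EPCAM stayed below 1. Of 4 acinar markers 3 were listed at 0 in all libraries, as were 2 of 4 fibroblast and 3 of 4 immune markers, and the summed TPM of these lists was at most 4.55, 2.21 and 0.0211.

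The stretches of 250 bases before the transcription starts of CDKN1A, CDKN1B and BTG2 are shown because these inhibitors differed in direction and in level between the groups. RefSeq places these starts further downstream than the GENCODE gene starts given with each gene, so the stretches lie wholly (CDKN1A and CDKN1B) or partly (BTG2) within the GENCODE bounds. They come from RefSeq on GRCh38.p14, plus strand, at chr6:36678464-36678713, chr12:12717118-12717367 and chr1:203305269-203305518. Capitals mark GC boxes (GGGCGG or CCGCCC) and CCAAT boxes (CCAAT or ATTGG).
CDKN1A: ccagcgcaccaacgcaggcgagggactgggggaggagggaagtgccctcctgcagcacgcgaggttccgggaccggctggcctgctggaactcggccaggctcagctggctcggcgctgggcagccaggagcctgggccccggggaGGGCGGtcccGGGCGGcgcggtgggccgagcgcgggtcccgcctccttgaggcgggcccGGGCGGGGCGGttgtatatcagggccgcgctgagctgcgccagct
CDKN1B: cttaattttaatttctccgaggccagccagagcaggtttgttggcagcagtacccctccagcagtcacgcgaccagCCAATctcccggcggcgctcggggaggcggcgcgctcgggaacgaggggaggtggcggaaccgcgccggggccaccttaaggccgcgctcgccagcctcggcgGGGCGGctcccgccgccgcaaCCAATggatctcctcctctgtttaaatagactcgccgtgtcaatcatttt
BTG2: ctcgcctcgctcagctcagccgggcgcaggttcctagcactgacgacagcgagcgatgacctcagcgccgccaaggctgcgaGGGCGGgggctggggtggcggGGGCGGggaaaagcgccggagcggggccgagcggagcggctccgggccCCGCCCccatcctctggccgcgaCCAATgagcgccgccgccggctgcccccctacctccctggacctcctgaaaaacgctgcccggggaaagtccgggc

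The CDKN1A stretch held 4 GC boxes, the last pair overlapping by a base, and no CCAAT box. CDKN1B held 1 GC box and 2 CCAAT boxes, and BTG2 held 3 GC boxes and 1 CCAAT box. Among all 35116 promoter stretches of this length, 42.6% held a GC box and 32.0% a CCAAT box. The letters TATAAA (10.7% of all stretches), TGACGTCA (1.65%), TGANTCA (6.57%) and TGATGNAA (3.14%) were found on neither strand of these 3. Of the members, 7 had an entry, and CDKN1C, GADD45A and TP53INP1 had none.

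The members were selected on their TPM with EB and DMSO, in that they were proposed with results of this contrast known. Their differences are therefore given as a description, with a standard error (SE) from limma on log2(TPM + 1) but with no p-value for any member.

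Among the CIP/KIP inhibitors, CDKN1A was higher and CDKN1B lower with EB in every library. CDKN1A (ENSG00000124762) occupies bases 36676460 to 36687337 of chromosome 6 (hg38, plus strand). Its TPM was 17.6, 13.5, 15.4 and 8.14 in DMSO replicates 1 to 4 and 37.3, 38.0, 33.4 and 31.2 in EB replicates 1 to 4. The groups did not overlap, and the lowest DMSO value was that of replicate 4, the library with the high mitochondrial share. Mean TPM was 13.7 ± 4.04 (SD, n = 4) with DMSO and 35.0 ± 3.24 (SD, n = 4) with EB, 2.56 times as much, and the log2 fold change was 1.34 (SE 0.21). Without DMSO replicate 4 it was 1.13.

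CDKN1B (ENSG00000111276), at bases 12685498 to 12722369 of chromosome 12 (plus strand), went the other way. Its TPM was 32.6, 37.2, 32.3 and 28.0 with DMSO and 20.1, 19.5, 16.2 and 14.2 with EB. Every EB library lay below every DMSO library, with a log2 fold change of −0.86 (SE 0.15). CDKN1B shares bases with GPR19 on the opposite strand, and whether the counting used strand is not given in the sources used here. GPR19 did not differ past the threshold (limma adjusted p = 0.198).

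CDKN1C (ENSG00000129757), an imprinted gene at bases 2883213 to 2885775 of chromosome 11 (minus strand), was scarce. Its TPM was 4.41, 4.90, 2.02 and 2.03 with DMSO and 1.53, 2.52, 1.67 and 2.18 with EB. DMSO replicates 1 and 2 stood above the other 6 libraries, so that the SD with DMSO (1.53, n = 4) was close to the difference of the means, and the groups overlapped. The log2 fold change was −0.49 (SE 0.24). It was −0.32 without DMSO replicate 2 and −0.18 after quantile normalization, and −0.65 with the mitochondrial genes removed.

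The summed TPM of the CIP/KIP genes was 49.5 ± 7.98 (SD, n = 4) with DMSO and 54.4 ± 6.01 (SD, n = 4) with EB, with overlapping libraries. The shares of CDKN1A and CDKN1B in this sum did not overlap between the groups, while those of CDKN1C did. CDKN1A supplied 21.3% to 32.2% of it in the DMSO libraries and 63.3% to 65.5% in the EB libraries, and CDKN1B supplied 59.7% to 73.4% and 29.9% to 34.1%. The ratio of CDKN1A to CDKN1B within a library does not depend on scaling between libraries. It was 0.54, 0.363, 0.476 and 0.29 with DMSO and 1.85, 1.95, 2.07 and 2.19 with EB, so the more abundant of these transcripts was CDKN1B in each DMSO library and CDKN1A in each EB library.

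**Figure D1:**
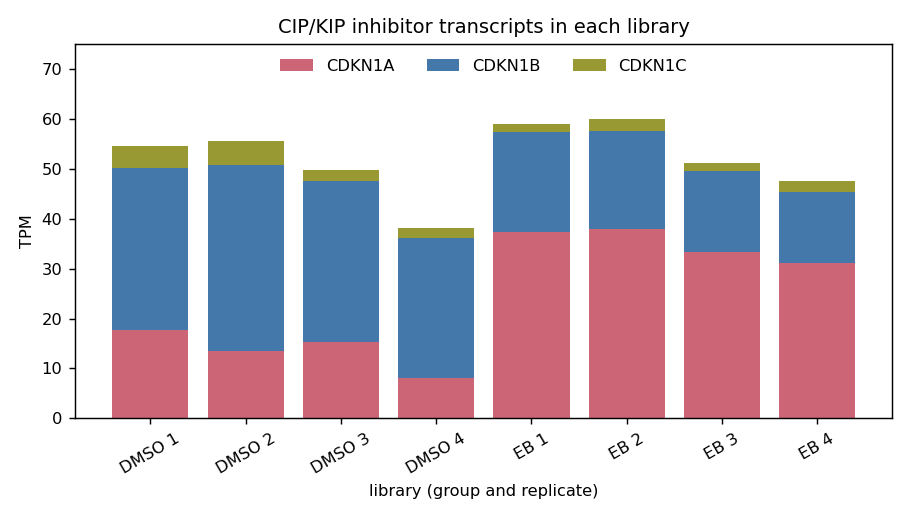
Stacked bars give the TPM of CDKN1A, CDKN1B and CDKN1C in each of the 8 libraries. The total height was 38.2 to 55.6 TPM with DMSO and 47.6 to 60.0 with EB, and the CDKN1A segment was the largest in each EB library.

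The INK4 members CDKN2A (ENSG00000147889) and CDKN2B (ENSG00000147883) were listed at 0 TPM in all 8 libraries, as were 4121 genes (20.3%) of the table, and have no fold change. They are neighbours on chromosome 9 (minus strand), at bases 21967752 to 21995301 and 22002903 to 22009305. The genes around them were looked at after these zeros had been seen. Within 3000 kb on each side of CDKN2A the table holds 35 genes. RPS6, which encodes a ribosomal protein and lies from 19375715 to 19380236, was the nearest gene with a mean TPM of at least 1, at 2157 ± 128 TPM (SD, n = 4) with DMSO and 2617 ± 254 (SD, n = 4) with EB. No gene on the other side of CDKN2A reached a mean of 1 TPM within the window. From ACER2, next to RPS6, to IZUMO3 at the far end stood 29 genes over 5137 kb, the INK4 pair among them, of which 24 were listed at 0 in all libraries. These include MTAP, which encodes a methionine salvage enzyme made in most tissues and lies next to CDKN2A, HACD4, and 16 type I interferon genes. FOCAD and KLHL9 reached at most 0.0908 and 0.0451 TPM in any library, and ACER2 1.17. A deleted gene and a silent one cannot be told apart from TPM.

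**Figure D2:**
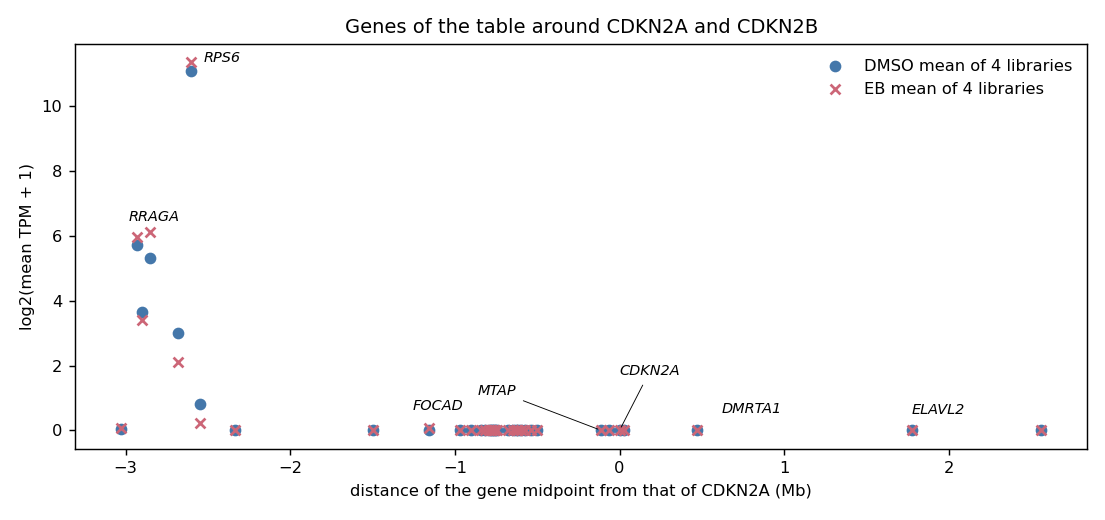
Each gene of the table within 3000 kb of CDKN2A is placed by the distance of its midpoint from that of CDKN2A (Mb) and by log2(mean TPM + 1), with circles for DMSO and crosses for EB. Genes up to RPS6, at −2604 kb, are expressed, except SAXO1 at the left edge, and those beyond lie at or near 0.

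BTG2 (ENSG00000159388) showed the largest difference of the members. It occupies bases 203305491 to 203309602 of chromosome 1 (plus strand). Its TPM was 87.3, 79.9, 92.2 and 70.1 with DMSO and 14.5, 15.7, 12.5 and 13.6 with EB. The EB libraries lay close to each other and far below each DMSO library. The mean with DMSO was 5.86 times that with EB, and the log2 fold change was −2.47 (SE 0.13). BTG2 was the most abundant member with DMSO, at rank 1690 from the top of the 20263 genes, and stood at rank 6317 with EB.

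BTG1 (ENSG00000133639), its paralog at bases 92140278 to 92145846 of chromosome 12 (minus strand), was scarce in both groups. Its TPM was 4.51, 4.03, 3.30 and 3.01 with DMSO and 3.69, 3.95, 2.53 and 3.18 with EB. The groups overlapped, with a log2 fold change of −0.12 (SE 0.16), close to the median of all genes tested (−0.11). Its value was −0.02 after median-ratio scaling, and −0.27 with the mitochondrial genes removed. Its sign was positive after quantile normalization (0.21) and once the dependence on transcript length and GC content was removed (0.14). The ratio of BTG2 to BTG1 was 19.3 to 28.0 in the DMSO libraries and 3.91 to 4.96 in the EB libraries. BTG1 shares bases with the long noncoding gene LINC01619 on its own strand, which is not a row of the table.

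GADD45A (ENSG00000116717) was the member that was higher by most. It occupies bases 67685201 to 67688334 of chromosome 1 (plus strand). Its TPM was 22.0, 35.6, 29.1 and 24.3 with DMSO and 112.1, 120.3, 108.3 and 91.8 with EB. The lowest EB library stood far above the highest DMSO library. Mean TPM was 27.8 ± 6.02 (SD, n = 4) and 108.1 ± 12.0 (SD, n = 4), a ratio of 3.90 and a log2 fold change of 1.94 (SE 0.17). With EB it became the most abundant member, at rank 1352 of the table. Its transcript of 1352 nucleotides belongs to a length class of 1168 genes with a median log2 fold change of 0.24. Without the length and GC trend the log2 fold change of GADD45A was 1.73.

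GADD45B (ENSG00000099860), at bases 2476122 to 2478259 of chromosome 19 (plus strand), had a TPM of 16.5, 20.4, 17.1 and 11.7 with DMSO and 25.7, 18.9, 20.5 and 19.7 with EB. DMSO replicate 2 exceeded EB replicates 2 and 4, so the groups overlapped, and the log2 fold change was 0.37 (SE 0.18). The overlap depends on the scaling, since the 4 EB libraries lay above the 4 DMSO libraries after median-ratio scaling (log2 fold change 0.49) and after quantile normalization (0.52), and also without DMSO replicate 2 (0.47). The value was 0.22 without DMSO replicate 4, 0.19 with the mitochondrial genes removed and 0.17 without the length and GC trend. GADD45A took 57.2% to 67.5% of the TPM of this pair with DMSO and 81.4% to 86.4% with EB.

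TP53INP1 (ENSG00000164938), which acts in cell death and autophagy, occupies bases 94925972 to 94949378 of chromosome 8 (minus strand). Its TPM was 3.66, 4.19, 4.22 and 2.88 with DMSO and 0.772, 1.39, 0.842 and 1.04 with EB. All EB libraries were below all DMSO libraries, with means of 1.01 ± 0.279 (SD, n = 4) and 3.74 ± 0.628 (SD, n = 4) and a log2 fold change of −1.23 (SE 0.15). At this level the fold change depends on the pseudocount, and it was −1.80 with a pseudocount of 0.1. Across 11685 nuclear genes the log2 fold change fell with transcript length (Spearman correlation −0.48). The TP53INP1 transcript of 5605 nucleotides belongs to a length class of 1170 genes with a median log2 fold change of −0.44, and without the length and GC trend the value was −0.90. The gene shares bases with NDUFAF6 on the opposite strand, whose EB libraries all lay above the DMSO libraries (limma adjusted p = 0.0602).

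**Figure D3:**
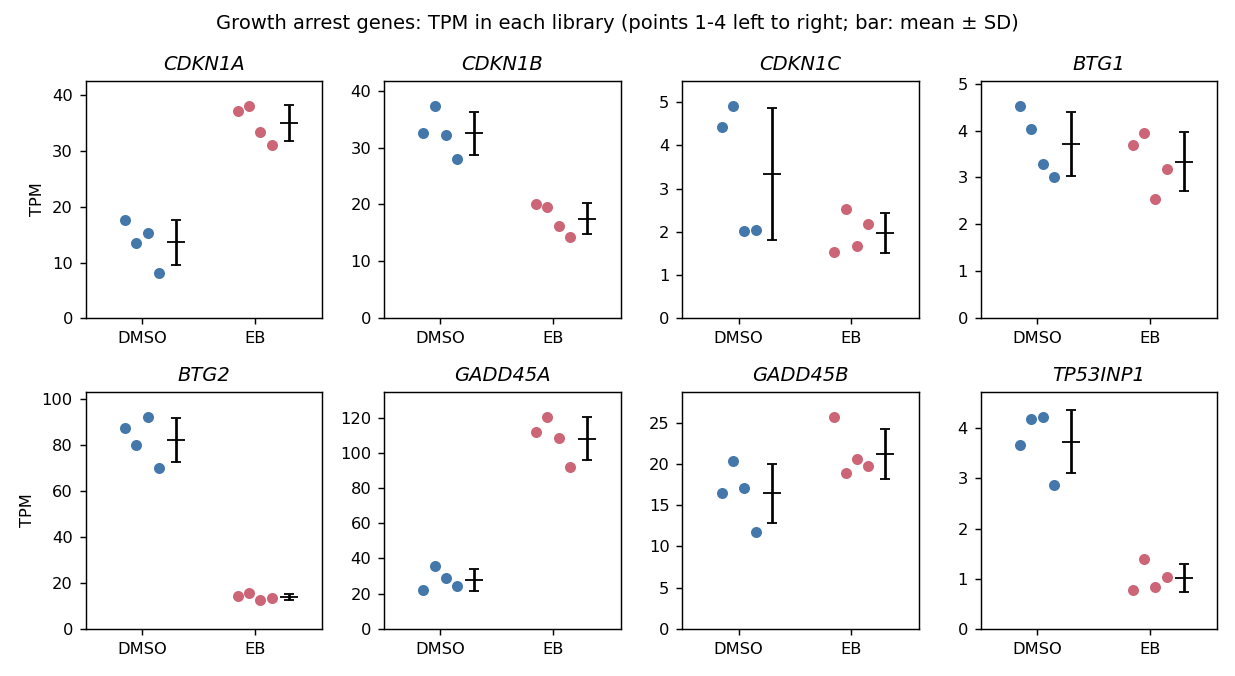
Points show the TPM of the 8 members above 0 in each library, replicates 1 to 4 from left to right within DMSO and EB, and bars the mean ± SD (n = 4). CDKN1A and GADD45A lie higher with EB and CDKN1B, BTG2 and TP53INP1 lower without overlap, while CDKN1C, BTG1 and GADD45B overlap.

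The order of the levels thus changed. With DMSO it was BTG2, CDKN1B, GADD45A, GADD45B, CDKN1A, TP53INP1, BTG1 and CDKN1C, where CDKN1B overlapped with GADD45A, GADD45B with CDKN1A, and the last 3 with their neighbours. With EB it was GADD45A, CDKN1A, GADD45B, CDKN1B, BTG2, BTG1, CDKN1C and TP53INP1, where GADD45B overlapped with CDKN1B and CDKN1B with BTG2. The ratio of GADD45A to BTG2 was 0.252 to 0.446 in the DMSO libraries and 6.77 to 8.63 in the EB libraries.

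Of the 10 members, 8 reached 1 TPM in 4 or more libraries and entered the fit across all genes, and the 2 INK4 genes did not. The EB and DMSO libraries did not overlap in 5 of these 8, 2 higher and 3 lower, where 36.8% of the 11725 genes tested did not overlap (16.6% higher, 20.3% lower). Counted only, to set them beside all genes, the same 5 had a limma adjusted p under 0.05, which 40.3% of all genes had, 15.2% higher and 25.1% lower with EB. The study's thresholds, a log2 fold change beyond 1.5 in either direction with an unadjusted p under 0.05, were applied to this fit. BTG2 and GADD45A passed them, as did 2.08% of all genes (0.537% higher, 1.54% lower). These thresholds depend on the pseudocount, since with 0.1 in place of 1 the log2 fold change of TP53INP1 was also beyond 1.5, and 137 genes were past them higher and 388 lower, against 63 and 181. The median log2 fold change was −0.30 for the 8 members and −0.11 for all genes tested. Nothing is read from these counts, since the contrast was in view when the members were chosen.

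**Figure D4:**
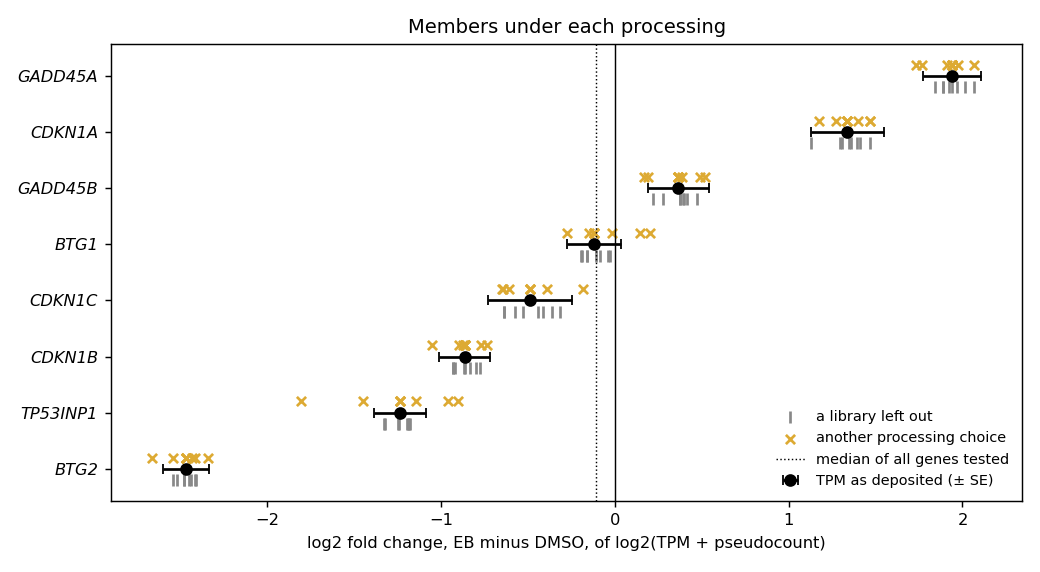
Black points give the log2 fold change (EB minus DMSO, ± SE) of each member above 0, crosses the value under another processing choice and grey ticks the value with 1 library left out. The sign of BTG1 depends on the processing, and the other 7 members keep theirs in each setting that included them.

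The genes nearest to GADD45A and BTG2, the members with the highest and the lowest log2 fold change, were sought by the root mean square difference of log2(TPM + 1) over the 8 libraries after subtraction of each gene's DMSO mean. Nearest to GADD45A were SPOCD1 (difference 0.165, log2 fold change 1.88), KRT19 (0.197 and 1.80), a ductal keratin, and DUSP5 (0.201 and 2.08), a phosphatase of ERK. Nearest to BTG2 were IFIH1 (0.118 and −2.45), a sensor of double-stranded RNA, CNTNAP1 (0.149 and −2.35) and PNCK (0.197 and −2.44). Log2(TPM + 1) understates the fold changes of low genes, so nearness on this scale need not mean an equal ratio of TPM. Mean TPM with DMSO and EB was 8.92 and 0.825 for IFIH1, and 12.9 and 1.56 for PNCK. It was 41.7 and 7.34 for CNTNAP1, and 82.4 and 14.1 for BTG2. Of the genes nearest to GADD45A, SPOCD1 and DUSP5 were scarce with DMSO and KRT19 was abundant.

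The other genes of these pathways were compared by limma, with adjustment over all 11725 genes tested. Of all genes tested, 15.2% were higher and 25.1% lower with EB at an adjusted p under 0.05. The list counts below stand beside these shares and were not tested against them. These lists too were drawn up with earlier results of these data known, so their p-values are not independent support for a direction. Among 7 tested relatives of the members, 2 rose and 3 fell, with a median log2 fold change of −0.19 where all genes had −0.11. TOB1, a BTG relative that also binds the deadenylases, fell from 56.6 ± 3.99 to 19.5 ± 3.38 TPM (SD, n = 4; log2 fold change −1.50, SE 0.14, limma adjusted p = 0.000121). TOB2 fell by 0.93 on the log2 scale (adjusted p = 0.0103). CDKN2C, an INK4 relative of CDKN2A and CDKN2B, fell from a mean of 39.1 to 27.3 TPM, with overlapping libraries (limma adjusted p = 0.0455). CDKN2D, also of the INK4 family, had means of 13.9 TPM with DMSO and 21.7 with EB and did not pass the threshold (limma adjusted p = 0.114). BTG3 rose, with a log2 fold change of 0.67 (limma adjusted p = 0.0137), as did the CDK phosphatase CDKN3, also at 0.67 (adjusted p = 0.0049). The call of CDKN3 was lost with the mitochondrial genes removed (0.49) and without the length and GC trend (0.39). With the mitochondrial genes removed 1 relative rose and 4 fell, and after median-ratio scaling and after quantile normalization 3 rose and 3 fell. The median of the relatives was above 0 after quantile normalization (0.07) and without the length and GC trend (0.03). BTG4 and GADD45G were too scarce to be tested. GADD45G had a mean of 0.305 TPM with DMSO (at most 0.616) and 1.25 with EB (at least 0.697).

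BTG and TOB proteins act through deadenylases. Of 16 tested genes of these complexes and their partners, 8 fell and 0 rose by limma (10 and 1 at an unadjusted p under 0.05), and the median log2 fold change was −0.51. Of all genes tested, 25.1% fell and 15.2% rose. PAN3 and PAN2, which form the other cytoplasmic deadenylase, fell most, PAN3 from 8.87 ± 1.26 to 1.51 ± 0.780 TPM (SD, n = 4; log2 fold change −2.02, SE 0.21, limma adjusted p = 0.000211) and PAN2 by 1.63 on the log2 scale (adjusted p = 0.000347). CNOT2, a scaffold subunit, fell by 0.99 (limma adjusted p = 0.0021) and PABPC1, the poly(A) binding protein, by 0.95 (adjusted p = 0.00087). Of the deadenylase subunits of CCR4-NOT itself, CNOT6L fell by 0.82 (limma adjusted p = 0.0084). CNOT6, CNOT7 and CNOT8 did not pass the threshold (limma adjusted p = 0.204, 0.0515 and 0.385), and their EB and DMSO libraries overlapped. The median remained negative after median-ratio scaling (−0.39, 2 higher and 6 lower), after quantile normalization (−0.50, 1 and 8), with the mitochondrial genes removed (−0.70, 0 and 12) and with the length and GC trend removed (−0.38, 1 and 6). Without that trend PAN3 was at −1.68 and PAN2 at −1.38.

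Among the partners of the CDK inhibitors, 13 of 15 cyclin, CDK and pocket protein genes were tested. Of these 2 were higher and 3 lower, where 15.2% of all genes were higher and 25.1% lower. The pocket protein genes RBL2 (p130) and RB1 fell, RBL2 from 35.3 ± 4.59 to 13.7 ± 3.05 TPM (SD, n = 4; log2 fold change −1.31, SE 0.17, limma adjusted p = 0.000544) and RB1 by 0.78 on the log2 scale (adjusted p = 0.00242). The cyclin genes CCNE1 and CCND3 rose by 0.52 (limma adjusted p = 0.00527) and 0.42 (adjusted p = 0.0226) on the log2 scale, and CCND3 lost its call under 7 of 17 alternatives. RBL2 was at −1.02 without the length and GC trend. RB1 was at −0.51 without that trend and after quantile normalization, and CCNE1 at 0.34 with the mitochondrial genes removed. CDK4 and CDK6, singled out after their values were seen because INK4 proteins bind them, had mean TPM of 91.6 and 0.284 with DMSO and 103.3 and 0.181 with EB. The number of these genes past the threshold was 3 without DMSO replicate 3, EB replicate 1 or EB replicate 3 and 8 without DMSO replicate 4. With the mitochondrial genes removed 1 rose and 5 fell, and after median-ratio scaling 4 rose and 3 fell.

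Among 16 tested transcription factors that are known to act on these promoters, 5 rose and 5 fell (15.2% and 25.1% of all genes tested). DDIT3 (CHOP), a stress factor, rose from 11.2 ± 1.11 to 45.0 ± 17.4 TPM (SD, n = 4; log2 fold change 1.85, SE 0.24, limma adjusted p = 0.000591). EGR1 rose by 1.37 on the log2 scale (adjusted p = 0.000268) and ATF3 by 1.15 (limma adjusted p = 0.0141). TP63, a factor of basal epithelia, fell by 3.21 on the log2 scale (SE 0.28, limma adjusted p = 7.18e-05). Without the length and GC trend TP63 was at −2.92. With the mitochondrial genes removed 5 rose and 8 fell, and after quantile normalization 7 rose and 5 fell.

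Of 11 tested genes for the turnover of CIP/KIP proteins, 1 rose and 2 fell, where 15.2% of all genes rose and 25.1% fell. CKS1B, the cofactor with which SKP2 recognises p27, rose from 193 ± 5.14 to 299 ± 7.42 TPM (SD, n = 4; log2 fold change 0.62, SE 0.10, limma adjusted p = 0.00181). SKP2 itself had means of 28.3 TPM with DMSO and 15.7 with EB, with overlapping libraries. Its log2 fold change was −0.77 and did not pass the threshold (limma adjusted p = 0.0775). CUL4B and CUL4A, scaffolds of the ligase that marks p21, fell by 0.90 (limma adjusted p = 0.000623) and 0.56 (adjusted p = 0.0394) on the log2 scale, and CUL4A lost its call under 9 of 17 alternatives. Without the length and GC trend CKS1B was at 0.33, CUL4B at −0.56 and CUL4A at −0.21. Without DMSO replicate 4, 1 rose and 4 fell, and after median-ratio scaling 4 rose and 4 fell. Without DMSO replicate 1, 2 or 3, or any 1 EB library, the count was 2. Among 7 tested kinases downstream of GADD45, MAP2K3 rose by 0.59 (limma adjusted p = 0.0237) and MAP3K4, which GADD45 proteins bind, fell by 0.44 (adjusted p = 0.0255). Neither call is firm, since 0 of these kinases passed the threshold of limma without DMSO replicate 2, EB replicate 1 or EB replicate 3 (2, 4 and 2 at an unadjusted p under 0.05) and 1 without DMSO replicate 3, EB replicate 2 or EB replicate 4. Without the length and GC trend MAP3K4 was at −0.12. MAP2K6, another kinase of this list, was too scarce to be tested. It had a mean of 1.24 TPM with DMSO (at least 0.960) and 0.169 with EB (at most 0.296).

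Of 14 proliferation markers, 2 rose and 2 fell, where 15.2% of all genes rose and 25.1% fell, and the median log2 fold change was −0.15. TOP2A fell from 122 ± 7.87 to 63.4 ± 10.8 TPM (SD, n = 4; log2 fold change −0.94, SE 0.14, limma adjusted p = 0.00104) and MKI67 by 0.82 (adjusted p = 0.00839). RRM2, a ribonucleotide reductase subunit, rose by 0.69 (limma adjusted p = 0.00248) and PCNA, the replication clamp that p21 and GADD45 proteins bind, by 0.56 (adjusted p = 0.00634). Without the length and GC trend the log2 fold changes were smaller, at −0.61 for TOP2A, −0.37 for MKI67 and 0.35 for PCNA. Without DMSO replicate 4, 2 rose and 6 fell. The split was 5 higher and 3 lower after median-ratio scaling, 2 and 7 after quantile normalization, 2 and 8 with the mitochondrial genes removed, and 5 and 4 with the length and GC trend removed, so the direction of this list depends on the scaling.

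**Figure D5:**
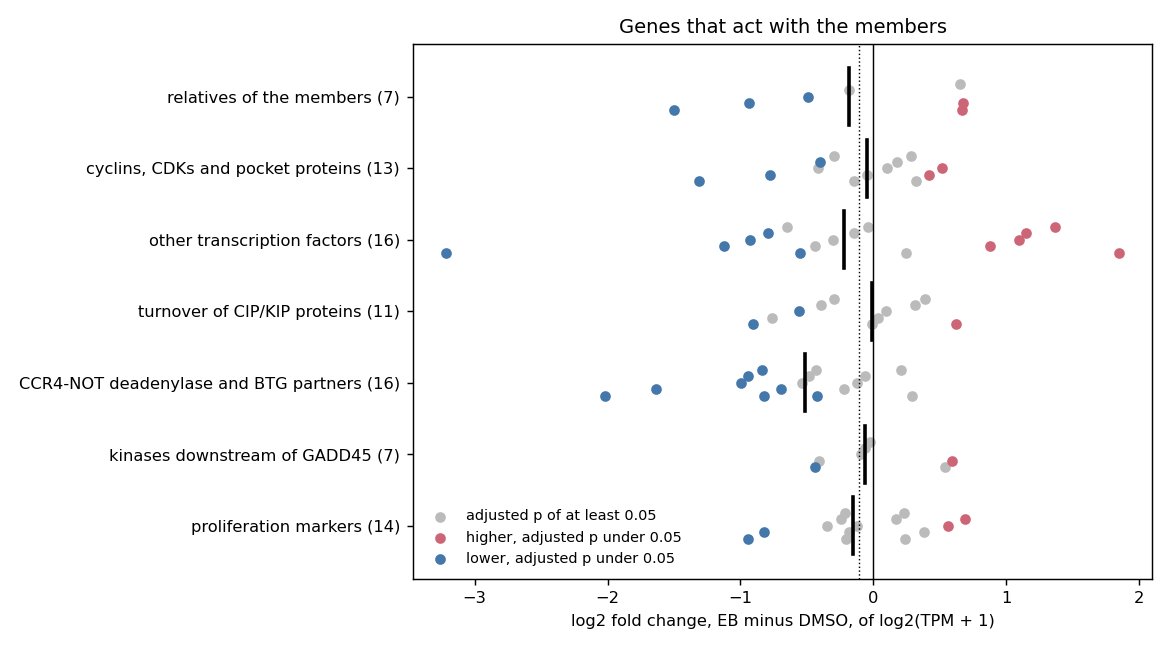
Each point is a tested gene of a list, placed by its log2 fold change (EB minus DMSO, log2(TPM + 1)) and coloured by its limma adjusted p, with the number tested beside the list's name. Black bars are list medians and the dotted line the median of all genes tested (−0.11). The deadenylase list has the lowest median (−0.51).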

How the data were processed

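The authors deposited TPM per gene and library. The methods describe trimming, mapping, read counting and normalization in CLC Genomics Workbench 11.0.1, and list HISAT2, StringTie and others as additional tools; which of them gave the TPM is not stated. The methods name GrCM38 as well as hg38, and all identifiers are human. Symbols, positions and transcript lengths are from GENCODE 44 on hg38 (20148 of 20263 identifiers matched). No read counts were used, so depth and its precision are unknown.

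Differences between EB and DMSO were fitted with limma 3.58.1 (R 4.3.3) on log2(TPM + 1), 4 libraries against 4, for genes that reached 1 TPM in 4 or more libraries, with Benjamini-Hochberg adjustment. Fold changes on this scale understate those of low genes. The members and lists were chosen with earlier results of these data known. Named genes are the members, up to 4 genes per list past an adjusted p of 0.05 with the largest absolute log2 fold change, and the 3 nearest genes of each extreme member. Some other list genes, such as CNOT7, GADD45G, MAP2K6, CDKN2C, SKP2 and SP1, were named after their values had been seen. The alternatives are those of the closing section. The main limma fit was tested on simulated data with independent noise for each gene. Those data lack shifts shared between genes, such as the mitochondrial share and the length trend, and the other steps were not simulated. Python 3.11.15 with pandas 2.3.3, scipy 1.17.1 and matplotlib 3.10.9 made tables and plots. A further list fixed with the others is not reported here.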

Additional observations from a re-analysis of the deposited data

How the results depend on the processing

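Each value was computed again with median-ratio scaling or quantile normalization, without the 13 mitochondrial genes, without the length and GC trend, with a pseudocount of 0.1, with a minimum of 5 TPM or none, with an intensity trend in limma, with a replicate block, and with each library left out. The number of members past a limma adjusted p of 0.05 was 4 to 6, with 4 where only 5 members passed the stricter filter, and without overlap it was 4 to 6. The number of all genes past that adjusted p ranged from 3350 of 11662 without EB replicate 3 to 6280 of 11712 without the mitochondrial genes. The share of all genes without overlap is not given for these settings, and nothing is read from the member counts. The log2 fold change of BTG1 was 0.21 with quantile normalization and 0.14 without the length and GC trend; the cause was not tested. Over all genes, 1785 were higher and 2944 lower as deposited (median −0.11), 3146 and 3001 after median-ratio scaling (0.01), 2792 and 2759 after quantile normalization (0.02), 2664 and 2682 without the length and GC trend (−0.00), and 1440 and 4840 without mitochondrial genes (−0.28).

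Genes past the study's thresholds numbered 63 higher and 181 lower as deposited, 137 and 388 with a pseudocount of 0.1, 103 and 107 after quantile normalization, 43 and 327 without mitochondrial genes, 68 and 120 without the length and GC trend, and 53 and 280 without DMSO replicate 4. The study's own counts by its thresholds differ from those of this fit as deposited, with more genes higher than lower. The scale and gene filter it used are not stated. Counts of list genes past the threshold that moved by over 1.5 times were, with median-ratio scaling, 8 for turnover (3 as deposited) and 8 for proliferation (4). With quantile normalization they were 5 for turnover, 1 for the GADD45 kinases (2) and 9 for proliferation. Without the mitochondrial genes they were 6 for turnover and 10 for proliferation, and without the length and GC trend 1 for the kinases and 9 for proliferation. With 1 library left out the counts ranged from 3 to 8 for cyclins and CDKs (5), 2 to 5 for turnover, 0 to 3 for the kinases and 4 to 8 for proliferation. Deviations of same-numbered libraries correlated at −0.09 to 0.28, with 4 of 8 libraries closest to their own number. This does not settle whether the numbers are pairs, and the main fit did not pair them. With the replicate block 5756 genes passed in place of 4729, among them 5 turnover genes and 5 members. The SE of CDKN1A was 0.16 with the block and 0.21 without, and that of BTG2 was 0.13 in both. No library of a member stood apart from its group by Dixon's ratio. The unknown depth limits what can be said of members near 1 TPM.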
